A study of Homo sapiens with 6 samples.

Results

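The transcriptome of MIA-PaCa2 cells overexpressing ESRP1 was compared with that of MIA-PaCa2 cells carrying the control construct LPCX. MIA-PaCa2 is an established human pancreatic cancer cell line with mesenchymal features. The series holds 6 RNA sequencing libraries, with LPCX, ESRP1 or ESRP2 in MIA-PaCa2 or in PANC-1, a second pancreatic cancer line. The comparison described here rests on 2 of the 6. Where ESRP2 in MIA-PaCa2 is set beside ESRP1, both are compared with the same LPCX library, so the ESRP2 values are no independent check. Cells of every group were grown in DMEM with 10% serum and antibiotics at 5% CO2, and libraries were made from 2 ug of RNA with the TruSeq mRNA kit. The sources used here do not give the promoter that drives the constructs, nor whether a line is a clone or a pool of cells. Genes were taken where they had an NM_ transcript, that is a protein-coding RefSeq transcript, and small RNA and blood-cell genes were set aside. Of the 27408 genes in the table, 19318 met this rule, and 9841 of these had at least 5 TPM in either library. TPM is an abundance scaled for transcript length and library size. With 1 library a side no difference has a replicate check, so no test and no error are given, and "higher" and "lower" refer to these libraries.

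ESRP1 is an RNA-binding protein of epithelial cells that binds GU-rich sequence in pre-mRNA and decides between alternative exons. It is known to be lost in the epithelial to mesenchymal transition, the shift of epithelial cells towards a motile state. Its best known targets are CD44, FGFR2, CTNND1, ENAH and ITGA6, in which epithelial and mesenchymal cells use different exons.

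The exons below were picked from coding exons with large differences of inclusion between the libraries, and they are not a full ranking. OSBPL3 is an example of lower inclusion with ESRP1, and the exons of CTNND1 and GSE1 described further on differed more in that direction. Capitals mark the exon, and the lower-case letters are the 15 bases of the spliced transcript on either side of it, so no intron is shown. They were read from the GENCODE release 29 transcripts on GRCh38, 5′ to 3′ on the gene's strand. The CD44 exons are the last of its variable exons, at chr11:35208105-35208206, chr11:35209965-35210054 and chr11:35211246-35211449 on the plus strand. The INF2 exon lies at chr14:104715284-104715340 (plus), the ENAH exon at chr1:225504991-225505053 (minus) and the UAP1 exon at chr1:162592732-162592782 (plus). The SLK exon lies at chr10:104010816-104010908 (plus) and the NF2 exon at chr22:29683020-29683064 (plus). The FNIP1 exon lies at chr5:131710578-131710661 (minus) and the OSBPL3 exon at chr7:24863200-24863292 (minus).
INF2, 57 bases: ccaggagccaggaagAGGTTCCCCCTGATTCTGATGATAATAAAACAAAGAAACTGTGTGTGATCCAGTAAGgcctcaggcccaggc
CD44, 102 bases: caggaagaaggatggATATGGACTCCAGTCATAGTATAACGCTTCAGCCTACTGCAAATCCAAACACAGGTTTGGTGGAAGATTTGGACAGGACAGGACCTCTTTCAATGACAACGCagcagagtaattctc
CD44, 90 bases: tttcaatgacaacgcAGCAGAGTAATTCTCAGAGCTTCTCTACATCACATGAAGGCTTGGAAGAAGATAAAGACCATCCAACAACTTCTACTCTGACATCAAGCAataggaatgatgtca
CD44, 204 bases: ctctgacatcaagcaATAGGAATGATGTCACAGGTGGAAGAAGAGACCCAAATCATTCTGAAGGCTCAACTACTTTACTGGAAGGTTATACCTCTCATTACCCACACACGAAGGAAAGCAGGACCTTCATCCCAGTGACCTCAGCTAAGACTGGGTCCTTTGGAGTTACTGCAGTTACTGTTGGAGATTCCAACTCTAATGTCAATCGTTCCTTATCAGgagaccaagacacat
ENAH, 63 bases: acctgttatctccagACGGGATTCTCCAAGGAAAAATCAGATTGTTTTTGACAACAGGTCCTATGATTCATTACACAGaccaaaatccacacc
UAP1, 51 bases: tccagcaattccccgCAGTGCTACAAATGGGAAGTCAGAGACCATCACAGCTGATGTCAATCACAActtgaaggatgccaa
SLK, 93 bases: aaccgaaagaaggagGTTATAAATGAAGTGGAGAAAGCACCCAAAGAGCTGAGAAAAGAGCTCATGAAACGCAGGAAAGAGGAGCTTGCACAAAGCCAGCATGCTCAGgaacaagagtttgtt
NF2, 45 bases: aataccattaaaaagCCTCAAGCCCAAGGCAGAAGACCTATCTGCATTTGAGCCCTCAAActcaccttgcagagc
FNIP1, 84 bases: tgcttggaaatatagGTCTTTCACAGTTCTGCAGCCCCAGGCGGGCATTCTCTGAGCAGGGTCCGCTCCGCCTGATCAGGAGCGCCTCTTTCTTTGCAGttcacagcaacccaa
OSBPL3, 93 bases: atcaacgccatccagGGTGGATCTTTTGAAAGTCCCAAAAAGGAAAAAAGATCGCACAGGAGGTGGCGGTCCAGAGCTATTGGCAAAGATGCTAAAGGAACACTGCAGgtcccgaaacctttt

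The construct was first checked by its own transcript. ESRP1 stood at 0.0781 TPM in the MIA-PaCa2 LPCX library and at 367 TPM in the ESRP1 library, a log2 ratio of TPM + 1 of 8.42. It stood at 0.125 TPM in the MIA-PaCa2 ESRP2 library, so a single MIA-PaCa2 library was high. The paralog ESRP2 was near 0 in both compared libraries, at 0.0704 TPM with LPCX and 0.106 TPM with ESRP1. In PANC-1, by contrast, ESRP2 was already at 34.8 TPM in the LPCX library, where ESRP1 was at 0.261 TPM. The LPCX library of MIA-PaCa2 therefore held only traces of either ESRP, whereas that of PANC-1 held ESRP2.

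The labelled cell type was set against its markers. Of 10 epithelial markers 4 had at least 5 TPM in both libraries (KRT8, KRT18, KRT19 and CLDN4), while CDH1, the E-cadherin gene, was at 0.157 and 0.112 TPM and EPCAM was listed at 0 in both. Of 8 mesenchymal markers 2 had at least 5 TPM. VIM, the intermediate filament vimentin, was at 5523 TPM with LPCX and 5605 TPM with ESRP1, and the repressor ZEB1 was at 21.6 and 20.8 TPM. GRHL2 and OVOL1, transcription factors of epithelial identity, were at 0.0172 and 0.0308 TPM with LPCX and at 0 with ESRP1. The LPCX and ESRP1 libraries thus carried the same split of markers, with keratins and vimentin high and E-cadherin near 0.

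Haemoglobin transcripts set the ESRP1 library apart. HBA1 was at 336 TPM, HBA2 at 670 TPM and HBB at 569 TPM in it, against 0.130, 2.26 and 0.675 TPM with LPCX and at most 3.84 TPM in any other library of the series. The 12 erythroid genes listed summed to 1577 TPM with ESRP1 and 3.20 TPM with LPCX, with 5 of them at 0 in the ESRP1 library. The 16 leukocyte genes summed to 48.0 TPM with ESRP1 and 31.1 TPM with LPCX, and PTPRC, the pan-leukocyte CD45 gene, was at 0.563 and 0.0811 TPM. In a bulk library, more cells of a type and more RNA per cell cannot be told apart. The blood lists took 0.163% of TPM in the ESRP1 library. Their part in the results below was not tested, and with TPM rescaled without these genes, an alternative chosen after seeing the data, 14 genes were higher and 5 lower by 2-fold.

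Gene levels differed little. Of the 9841 genes tested, 13 were at least 2-fold higher with ESRP1, which is 0.132%, and 5 were at least 2-fold lower, which is 0.0508%. The 13 include the overexpressed gene ESRP1 itself. At 1.5-fold the counts were 56 (0.569%) and 24 (0.244%), and 99.2% of genes lay within 1.5-fold. The median log2 ratio was 0.04, and 64.2% of genes had a ratio above 0. With median ratio scaling, which takes the typical gene as unchanged, that share was 54.6% and the 2-fold counts were again 13 and 5.

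**Figure D1:**
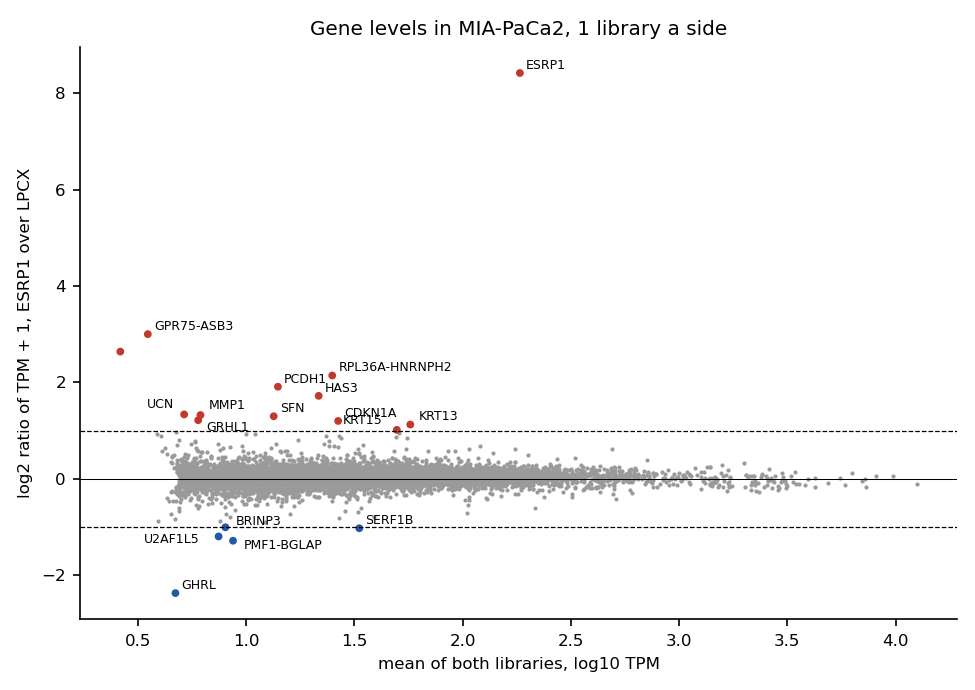
Log2 ratio of TPM + 1 (ESRP1 over LPCX, vertical) against mean level (log10 TPM, horizontal) for the 9841 genes tested in MIA-PaCa2. Red and blue points are the 13 genes at least 2-fold higher and the 5 at least 2-fold lower (dashed lines), and ESRP1 stands alone at 8.42.

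Among the genes higher with ESRP1 were PCDH1, HAS3 and MMP1, genes of adhesion or of the matrix around cells. In the list of integrins, laminins and matrix receptors, 0 of 15 genes tested reached 1.5-fold. PCDH1, a protocadherin of cell contacts, was at 5.30 TPM with LPCX and 22.7 TPM with ESRP1 (log2 ratio 1.91), and at 9.77 TPM with ESRP2. HAS3, which synthesises hyaluronan, the ligand of CD44, was at 9.51 and 33.7 TPM (1.72), and at 11.1 TPM with ESRP2. MMP1, the interstitial collagenase, was at 3.08 and 9.21 TPM (1.32), and at 1.19 TPM with ESRP2. For HAS3 and MMP1 the ESRP2 library was therefore close to or under LPCX, and PCDH1 lay between. In PANC-1, HAS3 went from 65.2 TPM with LPCX to 46.0 TPM with ESRP1 (-0.49), the other direction. PCDH1 was at 1.91 TPM with LPCX and 2.33 TPM with ESRP1 there (0.20), and MMP1 at 0.591 and 0.713 TPM (0.11).

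A second group held keratins and other epithelial genes. KRT13 was at 35.6 TPM with LPCX and 79.0 TPM with ESRP1 (1.13), and at 91.7 TPM with ESRP2. KRT15 was at 32.5 and 66.8 TPM (1.02), and at 62.1 TPM with ESRP2. Both are type I keratins of stratified epithelium. Both were higher in the ESRP1 and ESRP2 libraries of MIA-PaCa2 than in the LPCX library that serves both as control. In PANC-1, KRT13 was at most 0.633 TPM, and KRT15 was at 7.55 TPM with LPCX, 5.28 TPM with ESRP1 and 4.41 TPM with ESRP2. Keratin ratios of ESRP1 over LPCX in PANC-1 went both ways, with KRT19 at -0.27 and KRT8 at 0.27. In MIA-PaCa2, all 7 of the keratins tested, of 55 keratin entries in the table, had a ratio above 0, against 64.2% of genes tested. Their median was 0.35, and only KRT13 and KRT15 reached 2-fold. KRT80 was the lowest of them at 0.03, under the median of 0.04 for all genes. KRT8, KRT18 and KRT19, keratins of simple epithelium, had ratios of 0.33, 0.30 and 0.42. GRHL1, a grainyhead transcription factor of epithelia, was at 3.21 and 8.79 TPM (1.22), with ESRP2 at 8.19 TPM. It was also higher in PANC-1, at 6.68 TPM with LPCX and 11.6 TPM with ESRP1 (0.72). SFN, the epithelial adaptor 14-3-3 sigma, was at 7.31 and 19.5 TPM (1.30), and at 14.4 TPM with ESRP2.

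CDKN1A, the cyclin-dependent kinase inhibitor p21, was at 15.7 TPM with LPCX, 37.5 TPM with ESRP1 (1.20) and 17.7 TPM with ESRP2. Among the MIA-PaCa2 libraries only that of ESRP1 was thus high. In PANC-1, CDKN1A was at 31.6 TPM with LPCX, 36.4 TPM with ESRP1 (0.20) and 36.2 TPM with ESRP2. UCN, which encodes the peptide hormone urocortin, was at 2.49 and 7.83 TPM (1.34), and at 2.93 TPM with ESRP2. Just under 2-fold were NUAK2, an AMPK-related kinase, at 2.90 and 6.61 TPM (0.97), and FSCN1, the actin-bundling protein fascin, at 34.2 and 67.3 TPM (0.95). With ESRP2, NUAK2 was at 3.95 TPM and FSCN1 at 32.1 TPM, both nearer to LPCX than to ESRP1.

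Some of the 13 higher genes share sequence with a neighbour or a copy. RPL36A-HNRNPH2, a readthrough of neighbouring genes, went from 8.57 to 41.3 TPM, whereas RPL36A, HNRNPH2 and the readthrough together summed to 1082 and 1026 TPM. GPR75-ASB3 went from 0 to 7.02 TPM, with sums of 31.7 and 34.1 TPM. Both sums were nearly level. How the quantification divided reads among these entries was not tested.

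The lower genes were few and mostly at low level. GHRL, which encodes the hormone ghrelin, was at 8.56 TPM with LPCX, 0.854 TPM with ESRP1 (-2.37) and 0.771 TPM with ESRP2. It overlaps the antisense gene GHRLOS, and the sources used here do not state whether strand was used, so the entry is uncertain. BRINP3, a gene of the nervous system, was at 11.02 and 5.00 TPM (-1.002). The other 3 share sequence with another entry: PMF1-BGLAP (-1.28), U2AF1L5 (-1.19) and SERF1B (-1.02). SERF1A and SERF1B together summed to 63.5 TPM with LPCX and 56.9 TPM with ESRP1, and U2AF1 with its copy to 332 and 322 TPM. Next in order was F2RL2, a protease-activated receptor, at 16.2 and 8.26 TPM (-0.89). CD99L2, a surface protein related to CD99, was at 49.5 TPM with LPCX, 28.2 TPM with ESRP1 (-0.79) and 31.8 TPM with ESRP2. It was also lower in PANC-1, at 172 TPM with LPCX and 74.9 TPM with ESRP1 (-1.19).

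Few gene differences were shared with PANC-1, whose libraries are separate from those of MIA-PaCa2. Among the 9178 genes tested in both lines, 8 were 2-fold higher in MIA-PaCa2 and 2 (0.0218%) were in PANC-1. Only the overexpressed gene ESRP1 was in both, so no other gene was shared. For 2-fold lower the counts were 3 and 3 (0.0327%), with 0 in both. At 1.5-fold, 33 genes were higher in MIA-PaCa2 and 24 (0.261%) in PANC-1. Shared were ESRP1 and GRHL1, together 6.06% and 8.33% of those lists. The place of ESRP1 was set by the construct, so GRHL1 was the only other gene shared. Lower by 1.5-fold were 15 and 14 (0.153%), and CD99L2 and PLA2G4B, a phospholipase gene with a readthrough neighbour, were in both, 13.3% and 14.3% of those lists. The opposite direction at 1.5-fold was taken by 2 genes.

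Gene lists were described by counts and medians, beside 0.569% of all tested genes at least 1.5-fold higher, 0.244% lower and the median of 0.04. Counts of genes above 0 stand beside 64.2% of all tested genes, or 54.6% with median ratio scaling. Of 18 epithelial junction and identity genes tested, of 41 listed, 16 were above 0 with a median of 0.17, and GRHL1 and the tight junction gene CLDN1 (0.60) reached 1.5-fold. The lowest of that list was SPINT2, a protease inhibitor, at -0.11. Of 13 mesenchymal genes tested, of 33, the median was 0.04, the value for all genes, and only CYR61, a matricellular protein, reached 1.5-fold (0.62). No member of the epithelial or mesenchymal list was 1.5-fold lower.

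In the other lists described here few members reached 1.5-fold. Among 18 YAP and TEAD targets tested NUAK2 and CYR61 reached 1.5-fold (median 0.11), among 23 MAPK output genes only the phosphatase DUSP5 did (26.1 and 43.4 TPM, 0.71), and among 32 genes of actin regulation only FSCN1. In the cholesterol synthesis list 20 of 22 genes were above 0, against 64.2% of all genes tested. Its median was 0.15, its highest member was mevalonate kinase MVK (0.51), and 0 reached 1.5-fold. Metallothioneins and zinc genes had a median of -0.22 over 8 genes, with the metallothionein MT1A at -0.60 and the zinc exporter SLC30A1 at 0.59. Of 32 cytosolic ribosomal protein genes 6 were above 0, with a median of -0.06. Of 33 splicing regulators tested 0 reached 1.5-fold, the median was 0.01, and the highest was PTBP3, a polypyrimidine tract binding protein (39.8 and 54.0 TPM, 0.43). Under median ratio scaling 8 rather than 10 different list members were 1.5-fold higher.

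**Figure D2:**
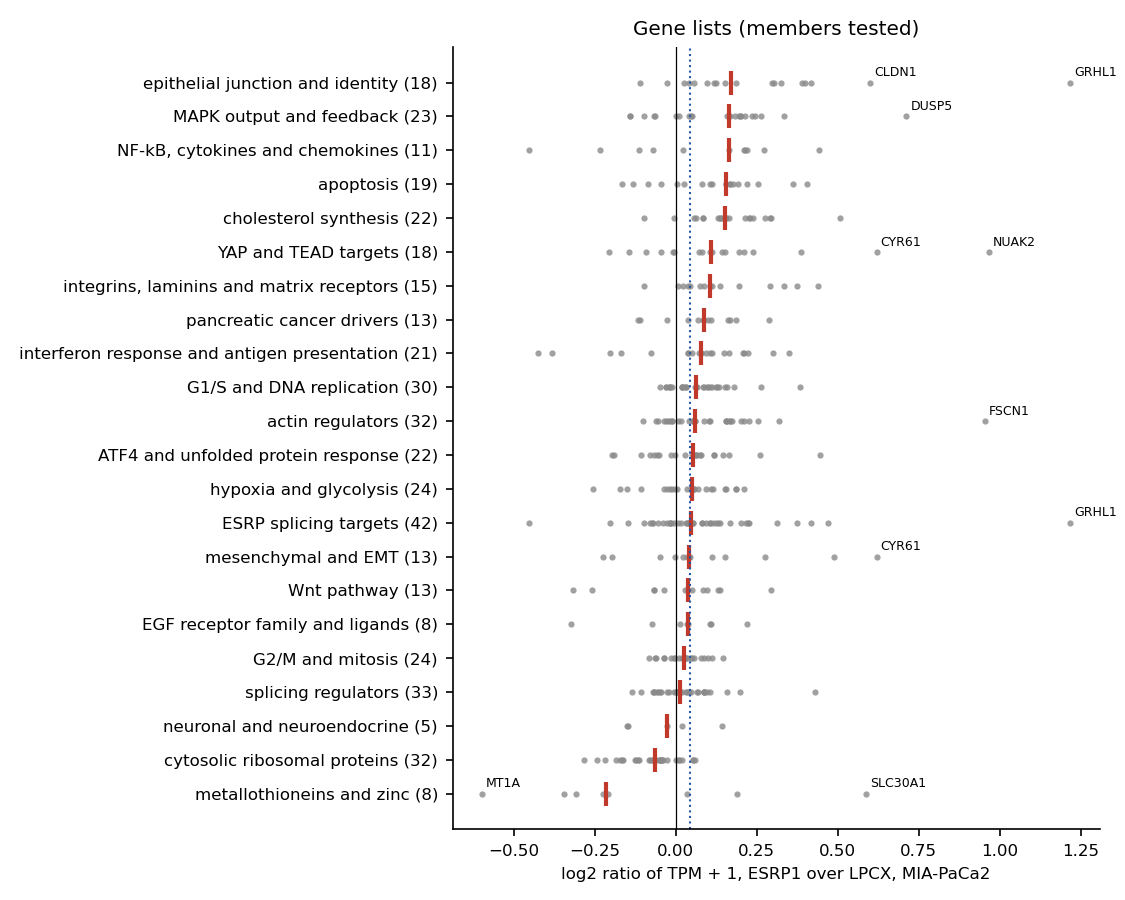
Log2 ratio of TPM + 1 (ESRP1 over LPCX) of each tested member (grey points) of gene lists in MIA-PaCa2, with the number tested in parentheses, the list median as a red bar and the median of all genes, 0.04, as a dotted line. The epithelial list has a median of 0.17 and the metallothionein and zinc list of -0.22, and members at least 1.5-fold apart are named.

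Transcript use differed in many genes. A transcript's share is its TPM as a percentage of its gene's TPM. Shares were compared in 4162 genes of 2 or more transcripts that reached 20 TPM in both libraries. Just inside this minimum was TAF1A (20.008 TPM with LPCX) and just outside INPP4A (19.999 TPM with LPCX). Of 9272 transcripts with at least 5% of their gene in either library, 301 (3.25%) had a share at least 10 percentage points higher with ESRP1 and 308 (3.32%) a share at least 10 points lower. They belonged to 367 genes, 8.82% of those compared. A difference of at least 20 points was seen in 61 genes, of 30 points in 26 and of 40 points in 8. Only 1 of the 367 genes was also 1.5-fold different in level (0.272%), against 12 of all 4162 (0.288%). These percentages were alike, so in level the 367 genes were like all genes compared.

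The share of genes past 10 points depended on their level. It was 12.8% for genes of 20 to 50 TPM, 6.51% for 50 to 100 TPM, 3.85% for 100 to 200 TPM and 3.25% above 200 TPM. TPM keeps no record of reads, so depth is unknown and no counting interval can be given. Among the 8 genes past 40 points, CD44, UAP1 and INF2 were above 100 TPM, and SLK, ENAH, FNIP1 and CYB561A3 were below.

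**Figure D3:**
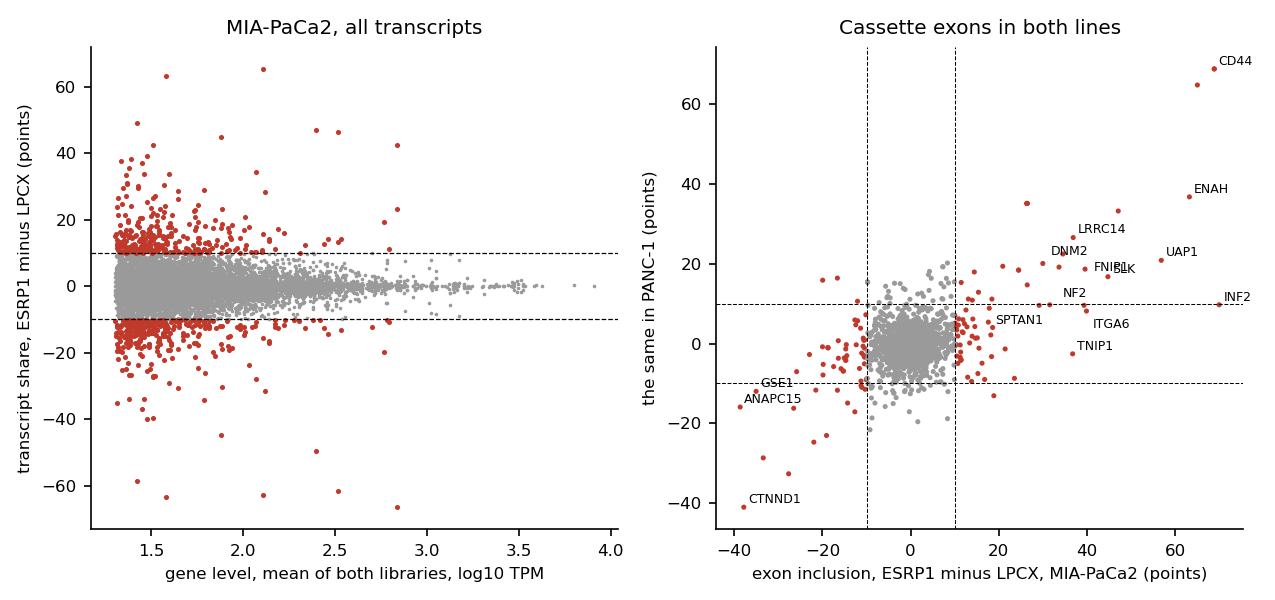
Left, difference in transcript share (ESRP1 minus LPCX, percentage points) against gene level (log10 TPM) for 9272 transcripts of MIA-PaCa2, with those at least 10 points apart in red. Right, difference in cassette exon inclusion in MIA-PaCa2 (horizontal) and PANC-1 (vertical) in points, where exons of CD44, ENAH and UAP1 lie far up on the right and CTNND1 far down on the left.

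CD44 is the surface receptor for hyaluronan, and its variable exons are skipped in the standard form. The standard transcript NM_001001391 took 81.4% of CD44 with LPCX and 14.97% with ESRP1. NM_001001390, which holds the last variable exons, went from 0.280% to 42.8%, and NM_001001389, with more of them, from 3.13% to 26.4%. The total hardly differed, at 679 and 697 TPM. By exon, the 102 and 90 base exons printed above were included at 3.67% with LPCX and 72.6% with ESRP1, and the 204 base exon at 8.64% and 73.7%. The 5 variable exons before them, of 114 to 132 bases, went only from 3.39% to 29.8%. In PANC-1 the 102 base exon went from 12.05% to 80.9%, and with ESRP2 in MIA-PaCa2 it was at 64.0%. CD44 thus had the same direction and nearly the same size in both lines.

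INF2 is a formin that polymerises and severs actin filaments, and NM_022489 is its form with a lipid-anchored C-terminus at the endoplasmic reticulum. NM_022489 took 15.6% with LPCX and 80.9% with ESRP1, while NM_001031714, which lacks the 57 base exon printed above, took 74.6% and 11.7%. Inclusion of that exon was 17.3% with LPCX and 87.3% with ESRP1, and the ESRP2 library gave 88.3%. In PANC-1 it was already 86.4% with LPCX and 96.1% with ESRP1. The level of INF2 was 115 TPM with LPCX and 141 TPM with ESRP1.

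ENAH, the actin regulator Mena, has a 63 base epithelial exon in its C-terminal part. The transcript with it, NM_001008493, took 2.40% with LPCX and 65.6% with ESRP1, while the ESRP2 library gave 57.1%. In PANC-1 it took 4.45% and 41.2%. ENAH stood at 37.3 and 38.7 TPM, so this switch, too, went without a difference in level. SLK, a kinase of the cortical cytoskeleton, has a 93 base exon that was nearly absent with LPCX, at 0.827%, and included at 45.6% with ESRP1. In PANC-1 the SLK exon was at 0.999% and 17.8%, a smaller difference from a similar start.

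UAP1, which makes the UDP-sugar needed for glycans, has a 51 base exon that was included at 11.8% with LPCX and 68.7% with ESRP1. A version 3 bases shorter, from another splice site, went from 2.60% to 37.1%. Each of these values leaves out the transcript with the other version, so they cannot be added. As a share of the gene, the transcript with the 51 base exon took 11.6% with LPCX and 58.0% with ESRP1. The transcript with the shorter version took 2.30% and 15.6%. In PANC-1 the 51 base exon stood at 64.7% and 85.6%. NM_003115, the main UAP1 transcript of the LPCX library, took 74.8% of the gene there and 13.1% with ESRP1.

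NF2 encodes merlin, a tumour suppressor that links the membrane to actin, and its 45 base exon gives the second C-terminal form. The exon was included at 48.0% with LPCX and 87.3% with ESRP1, while NM_000268, which skips it, went from 43.5% to 9.22% of the gene. FNIP1, a partner of folliculin in nutrient signalling, had an 84 base exon at 41.0% and 80.6%. ITGA6, integrin alpha 6, has 2 forms of its cytoplasmic tail. The form with a 130 base exon, NM_000210, took 39.0% with LPCX and 78.2% with ESRP1, and NM_001079818 without it 61.0% and 21.1%. In PANC-1, NM_000210 was at 88.2% already with LPCX.

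**Figure D4:**
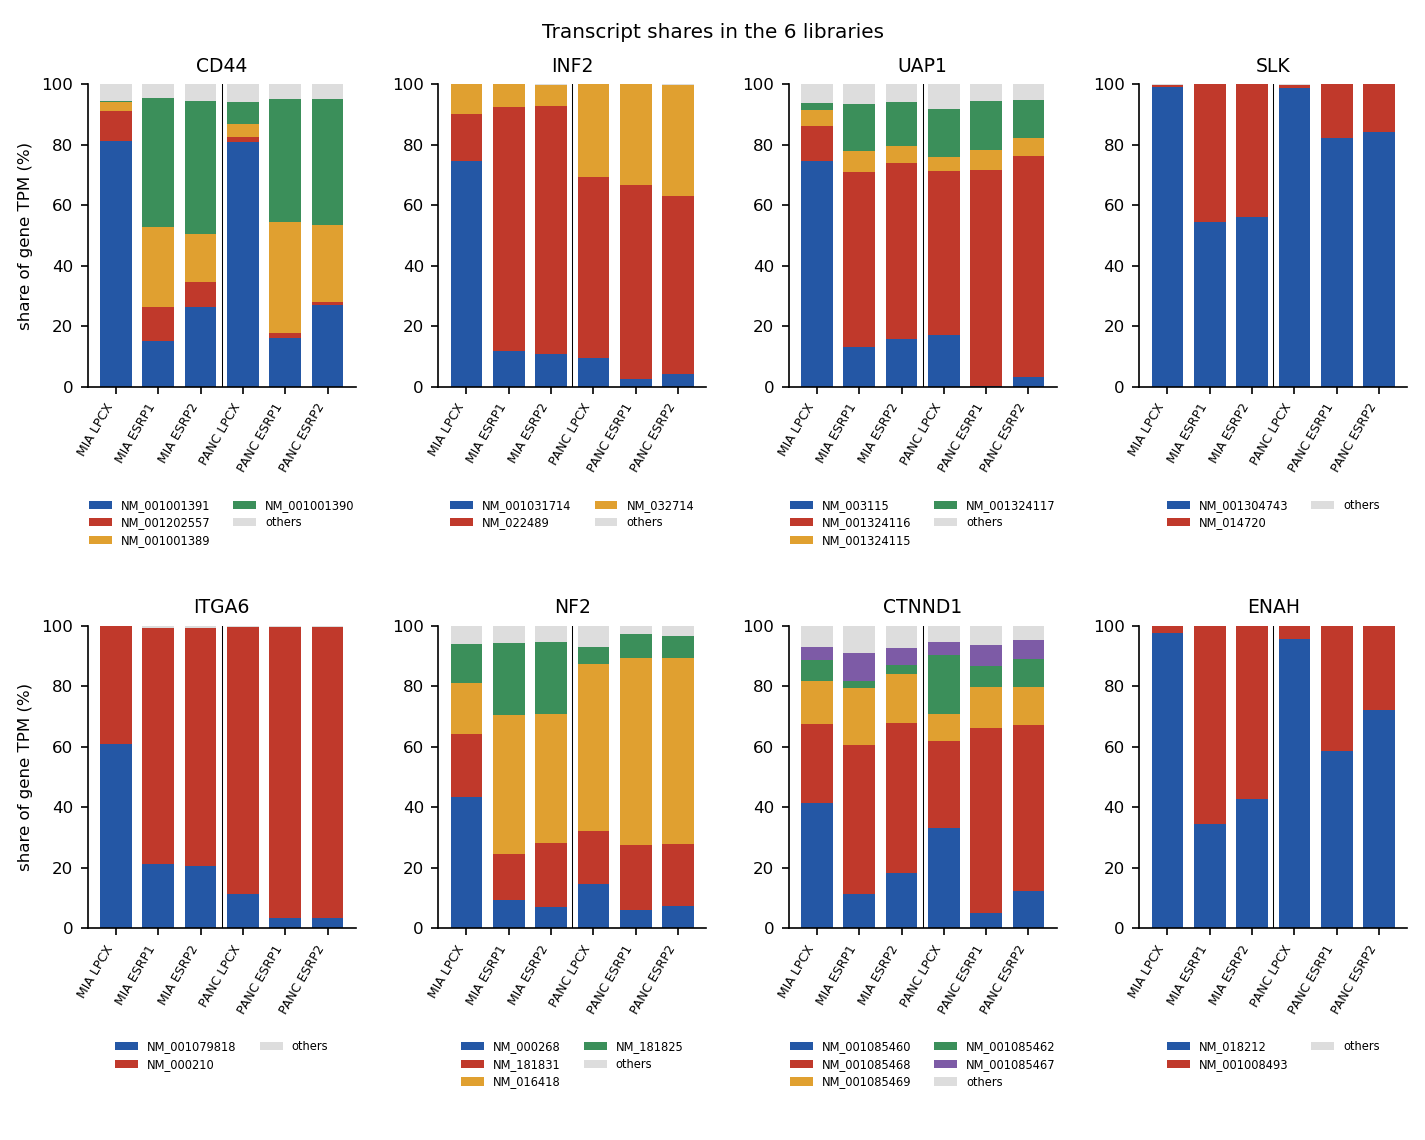
Share of gene TPM (%) taken by each transcript in the 6 libraries, MIA-PaCa2 on the left of each panel and PANC-1 on the right of the line. In MIA-PaCa2 the leading LPCX transcript (blue) is smaller with ESRP1 in all 8 genes, from 81.4% to 14.97% in CD44 and from 97.6% to 34.4% in ENAH, and the ESRP2 library is similar.

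Some differences lay outside whole internal exons. CYB561A3, a cytochrome b561 of lysosomes, had NM_153611 at 98.0% with LPCX and 39.6% with ESRP1, and NM_001300763 at 0 and 48.9%. The PANC-1 libraries gave 8.63% and 55.8% for NM_001300763, and the ESRP2 library of MIA-PaCa2 50.5%. For 264 of the 367 genes the pair of transcripts that gained and lost most could be classified by their exons. A whole internal exon alone separated the pair in 128 genes, only the ends of exons in 59, the first exon in 40, the last exon in 19 and several of these in 18. In 42 genes the pair had the same coding sequence, so the difference lay in untranslated parts.

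For a few genes the ESRP2 library of MIA-PaCa2 stood nearer to LPCX than to ESRP1. AZI2, an adaptor of TBK1 signalling, had NM_001134433 at 17.4% with LPCX, 52.8% with ESRP1 and 16.1% with ESRP2, and in PANC-1 it went from 32.7% to 28.6%. OGDHL, a mitochondrial dehydrogenase, had NM_001347819 at 15.8%, 53.3% and 16.3%, at a gene level of 20.3 TPM with LPCX. ARHGEF7, an exchange factor for small GTPases, had NM_003899 at 34.7%, 72.9% and 45.5%. ANAPC15, a subunit of the anaphase-promoting complex, had a 55 base exon outside the coding sequence at 69.7%, 31.0% and 71.1%. These values set 1 transcript against 1 other, together at 7.46 TPM with LPCX and 8.26 TPM with ESRP1. An overlapping 85 base form of the exon, held by 9 transcripts, was at 92.6%, 83.8% and 93.9%. In PANC-1 the 55 base exon was at 72.1% with LPCX, 56.2% with ESRP1 and 46.8% with ESRP2. All 4 genes were under 50 TPM, where share differences were most frequent. The difference between the ESRP1 and ESRP2 libraries was not tested.

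Cassette exons, internal exons that some transcripts hold and others skip, were measured as inclusion, the TPM of transcripts holding the exon as a percentage of those plus the ones skipping it. Transcripts with an overlapping form of the exon counted as neither. Of 2046 cassette exons in 1339 genes, 91 (4.45%) had inclusion at least 10 points higher with ESRP1 and 70 (3.42%) at least 10 points lower. At 20 points the counts were 30 exons in 21 genes and 12 exons in 11 genes. Median inclusion of the 30 exons was 12.7% with LPCX and 60.5% with ESRP1, and that of the 12 exons 68.1% and 37.8%. With 1 exon a gene the medians were 23.6% and 68.7% for the 21 genes, and 69.7% and 44.5% for the 11 genes. Of the 30, 26 were a multiple of 3 bases long, against 57.6% of all 2046. Length alone does not show that the reading frame runs on past the exon, since an exon can hold a stop codon. Taking 1 exon a gene, it was 17 of 21, or 81.0%, against 59.1%. Among exons lower by 20 points the share was 58.3%, near that of all exons.

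Lower inclusion was seen in genes of several kinds. CTNND1 encodes p120 catenin, which holds cadherins at the membrane, and its 289 base exon was included at 52.1% with LPCX, 14.3% with ESRP1 and, for ESRP2, 20.9%. In PANC-1 the CTNND1 exon was at 53.7% and 12.7%, nearly the same. GSE1, a coiled-coil protein of chromatin complexes, had a 219 base exon at 80.8% and 45.7%. OSBPL3, a lipid transfer protein that binds the small GTPase R-Ras, had its 93 base exon at 95.9% and 71.8%, and at 82.2% and 65.2% in PANC-1. MYOF, the membrane repair protein myoferlin, had a 39 base exon at 96.5% with LPCX, 82.2% with ESRP1 and 65.1% with ESRP2. MBNL1, itself a splicing regulator, had a 36 base exon at 69.2%, 53.4% and 45.0%. For MYOF and MBNL1 the ESRP2 library lay beyond the ESRP1 library.

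**Figure D5:**
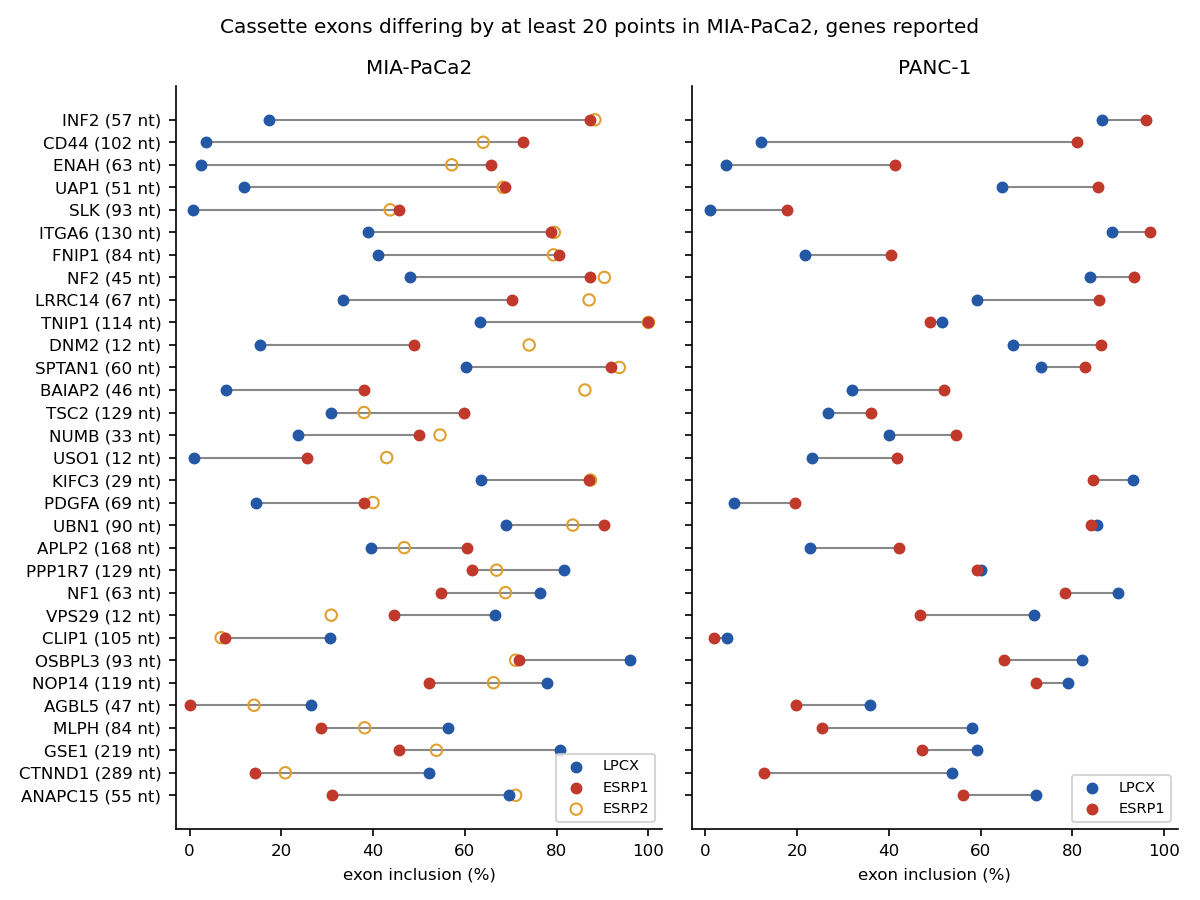
Inclusion (%) of the exon with the largest difference in genes with a difference of at least 20 points in MIA-PaCa2, with LPCX in blue, ESRP1 in red and ESRP2 of MIA-PaCa2 as open circles, and the same exons in PANC-1 on the right. Genes above PPP1R7 had higher inclusion, led by INF2 (17.3% to 87.3%), and PPP1R7 and those under it had lower inclusion, such as CTNND1 (52.1% to 14.3%).

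A list of 43 genes known for ESRP-dependent splicing was also followed. Its members were chosen with earlier results of these data known, so the counts below describe the list and are no independent support. Shares could be compared in 30 of them, and 16 (53.3%) had a transcript at least 10 points apart, against 8.82% of all genes compared. A difference of 20 points was reached by 9. The median log2 ratio of their levels was 0.05 over 42 genes, and GRHL1 alone was past 1.5-fold. Of 26 with a cassette exon, 16 had an exon at least 10 points apart. Beside those above, DNM2, the dynamin of endocytosis, had a 12 base exon at 15.3% with LPCX, 48.9% with ESRP1 and 74.0% with ESRP2. NUMB, an inhibitor of Notch signalling, had a 33 base exon at 23.6%, 50.1% and 54.6%. USO1, a tether of Golgi vesicles, had a 12 base exon at 1.04%, 25.5% and 42.9%. APLP2, a relative of the amyloid precursor, had a 168 base exon at 39.5%, 60.4% and 46.8%. BAIAP2, which couples small GTPases to actin, had a 46 base exon at 7.97%, 38.0% and 86.1%. DNM2, USO1 and BAIAP2 were thus further from LPCX with ESRP2, and APLP2 with ESRP1. Those with no exon past 10 points included MAP3K7, a kinase of TGF-beta and NF-kB signalling (9.42 points), and EXOC7, a subunit of the exocyst (6.48 points). CSF1, the macrophage growth factor, had NM_172211 at 10.7% with LPCX and 25.7% with ESRP1, and its level was 42.6 and 30.8 TPM. FGFR2, at 4.01 and 4.73 TPM, was under the 20 TPM needed for shares.

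PANC-1 gave a second look at these transcripts in libraries that share none with MIA-PaCa2. Of 8004 transcripts compared in both lines, 488 differed by 10 points in MIA-PaCa2 and 398 (4.97%) in PANC-1. The 76 that did so in the same direction in both, from 46 genes, were 15.6% of the MIA-PaCa2 list and 19.1% of the PANC-1 list, and 23 went in opposite directions. The share that differed by 10 points in the same direction in PANC-1 was 9.90% for 10 to 20 points, 31.2% for 20 to 30 points and 58.3% (21 of 36) for 30 points or more, against 2.17% for transcripts under 10 points. Shares within a gene depend on each other, so a rise in 1 transcript goes with a fall in others. The 488 transcripts came from 295 genes, and the 36 from 24 genes. Of the 29 exons higher by 20 points that could be measured in PANC-1, 21 were at least 10 points higher there, against 3.74% of all exons. Of 11 lower by 20 points, 8 were lower there, against 2.76%. None of either group went the other way by 10 points. Exons of the same gene can rest on the same transcripts, as in CD44. With 1 exon a gene, 12 of 20 were higher in PANC-1 (60%, against 3.84%) and 7 of 10 were lower (70%, against 3.14%).

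The exons were searched for GGTGG, a core of the GU-rich sequence that ESRP1 is known to bind, on the transcript strand, and for the reverse complement CCACC on the same strand. The motif GGTGG was in 14.9% of all 2046 exons, in 6 of the 91 exons higher by 10 points (6.59%) and in 15 of the 70 lower by 10 points (21.4%). CCACC was in 19.8%, 14.3% and 24.3% of the same groups. The longer TGGTGG, which contains GGTGG, was in 6.70%, 2.20% and 11.4%. At 20 points, GGTGG was in 4 of the 30 higher exons (13.3%) and in 3 of the 12 lower (25%), and TGGTGG in 6.67% and 8.33%. The higher exons at 20 points were thus near all exons for both motifs. Of the exons printed above, GGTGG occurs in the 102 and 204 base exons of CD44 and at 2 places in the OSBPL3 exon. Median exon lengths were 102 bases for all exons, 84 for those higher by 10 points and 104.5 for those lower by 10 points. Longer exons hold more motifs, so these shares are a description. Introns beside the exons, where ESRP1 also binds, were not analysed here.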

How the data were processed

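Per the submitters' processing notes, transcripts were quantified with Salmon on GRCh38 (hg38), with no version stated in these notes. A single table of TPM was deposited by the authors for RefSeq transcripts, and 8664 of its 67792 lines repeat a transcript. Without repeats each library summed to 1000000 over 59128 transcripts. Columns were matched to samples by line and construct, with misspelled headers assigned by elimination. TPM were summed per gene, and log2 ratios used a pseudocount of 1 TPM, which understates differences of low genes. Transcripts were paired by accession with GENCODE release 29 (53380 paired). Exons needed 5 TPM around them, 90% of gene TPM in paired transcripts, at least 5% inclusion in a library and at most 95% in a library. Shares come from the authors' split of reads among overlapping transcripts, and no junction reads were used. Calculations used Python 3.11.15 with pandas 2.3.3 and were tested on simulated data.

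Genes were named by rule: known ESRP genes, the 15 highest and 15 lowest ratios, the genes past 1.5-fold in both lines, the 15 largest share differences, the 12 largest exon differences, the highest and lowest member of each list and the ESRP targets with a share past the step. Other genes, such as further list members past 1.5-fold, BAIAP2, MAP3K7 and EXOC7, were chosen after their values were seen. The members and the 27 lists were chosen with earlier results of these data known. The labels do not say that libraries came from separate cultures. Some members and 1 list are not reported here. The alternatives tried are given in the closing section.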

Additional observations from a re-analysis of the deposited data

Results flagged for a closer look

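U2AF1L5, a near-identical copy of the splicing factor gene U2AF1, had a log2 ratio of -1.19 in MIA-PaCa2 and of 0.87 in PANC-1, opposite directions in the lines. The difference between the lines was not tested. U2AF1 and its copy together summed to 332 TPM with LPCX and 322 TPM with ESRP1 in MIA-PaCa2.

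Haemoglobin genes were set aside from the comparison but were high in the MIA-PaCa2 ESRP1 library and near 0 in its control. HBA1 was at 336.3 TPM against 0.13 TPM with LPCX, HBA2 at 669.9 TPM against 2.26 TPM and HBB at 569.1 TPM against 0.675 TPM. Some leukocyte genes had low levels in the same library, such as FCGR3B (3.67 TPM against 0) and TYROBP (2.04 TPM against 0). The source of these transcripts was not tested.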

How the results depend on the processing

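No paired analysis was possible because there is 1 library per group and the labels carry no replicate numbers. Counts of genes at least 2-fold higher and lower (13 and 5) were 8 and 1 with a pseudocount of 5 TPM, 31 and 11 with no filter on level, 7 and 1 with at least 20 TPM in either library, and 56 and 24 at 1.5-fold. Lower genes were 8 with repeated lines kept and 2 without entries that share sequence, an alternative chosen after seeing the data. Genes past the step in both lines (1 higher, 0 lower) were 2 and 2 at 1.5-fold, with the overexpressed ESRP1 counted among the higher. Transcripts with a share higher and lower (301 and 308) were 920 and 936 with genes of at least 5 TPM, 88 and 84 at 50 TPM, and 55 and 43 at a step of 20 points. Exons (91 and 70) were 224 and 186, 41 and 29, and 30 and 12 under the same settings. The cause of these shifts, other than more or fewer features tested, was not tested. Of 590 values of single genes and lists under alternatives, 31 moved, nearly all with another pseudocount, and 0 reversed. TPM keeps no depth, so which of the small share differences lie within counting error cannot be given.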

Other observations

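Several exons outside the lists, chosen after their values were seen, lay in regulators of growth signalling. TSC2, which restrains mTOR, had a 129 base exon included at 30.7% with LPCX, 59.9% with ESRP1 and 38.0% with ESRP2 in MIA-PaCa2, and at 26.6% and 36.2% with LPCX and ESRP1 in PANC-1. NF1, which inactivates Ras, had a 63 base exon at 76.4%, 54.9% and 68.9% in MIA-PaCa2, and at 90.03% and 78.3% in PANC-1. PDGFA, a growth factor, had a 69 base exon at 14.5%, 37.9% and 39.97%, and at 6.31% and 19.5%. TSC2 and NF1 were thus further from LPCX with ESRP1 than with ESRP2, and PDGFA was alike in both. The directions in PANC-1 were those of MIA-PaCa2 for these 3 exons.

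Further exons lay in genes of other kinds. MLPH, melanophilin, which ties vesicles to myosin, had an 84 base exon at 56.4% with LPCX, 28.7% with ESRP1 and 38.2% with ESRP2, and at 58.1% and 25.5% in PANC-1. VPS29, a retromer subunit, had a 12 base exon at 66.5%, 44.6% and 30.9%, and at 71.6% and 46.8%. SPTAN1, a spectrin of the membrane skeleton, had a 60 base exon at 60.2%, 91.8% and 93.6%, and at 73.1% and 82.8%. TNIP1, an inhibitor of NF-kB signalling, had a 114 base exon at 63.2%, 100% and 100% in MIA-PaCa2 but at 51.5% and 49.0% in PANC-1. TNIP1 thus differed in MIA-PaCa2 and by under 10 points in PANC-1, and the difference between the lines was not tested.

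TP63, a transcription factor of basal epithelium, was at 85.1 TPM with LPCX, 110.0 TPM with ESRP1 and 64.2 TPM with ESRP2 in MIA-PaCa2, and at 0.288 TPM or less in PANC-1.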
